A study of Mus musculus with 2 samples.

Results

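Ultraconserved elements are stretches of DNA that are identical in the human, mouse and rat genomes. Many of them are transcribed, and the products, called transcribed ultraconserved regions, are mostly noncoding RNAs that can be read from either strand of the element. Some lie inside protein-coding genes, others between genes, and altered levels of such transcripts are known mainly from work on cancers. Each element has a number, and numbers run in order along the human chromosomes.

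The members described here were the probes of a mouse LncRNA array whose identifier is the number of an ultraconserved element followed by a + or − strand sign. They were 954 of 59692 probes, which is 477 elements with 1 probe for each strand, and each probe had a single spot on an array. Element numbers ran from 1 to 483. The files do not say on which genome the + strand is defined, and the sequences and positions of the elements were not used here. The members were chosen by name, without regard to their signals.

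RNA came from the livers of male C57BL/6 mice aged 10 to 12 weeks. In the ischemia/reperfusion (I/R) sample the blood supply to 70% of the liver was blocked for 60 minutes and restored for 6 hours, and the RNA of 3 livers was mixed. The other sample is labelled control, and the paper's results describe the comparison as one with sham livers. Whether it was also a mixture is not stated. Each condition had 1 array, both arrays came from 1 slide scan, and ribosomal RNA had been removed before random-primed cRNA was labelled with Cy3. No difference could therefore be tested against the spread between animals, and all intervals below are 95% intervals of the spot measurement alone. The hepatocyte, macrophage, neutrophil, endothelial, cholangiocyte and lymphocyte marker lists could not be used to check the tissue, since 0 of their genes were named in the files.

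The arrays themselves were close in brightness. The median processed signal was 39.6 for the control and 39.3 for the I/R sample, none was saturated, and 68.7% and 63.4% of the spots outside the controls were well above background, the scanner software's flag for a signal that stands clear of the local background. After quantile normalization the lowest signal with this flag was 12.5 for the control sample and 17.5 for the I/R sample. A probe is called measured below where it carried this flag.

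Fewer ultraconserved region transcripts than other transcripts were measured. On the control array 411 of the 954 (43.1%) were well above background, and on the I/R array 358 (37.5%). Both arrays measured 337 of them (35.3%), while 522 (54.7%) were measured on neither. Over all 59692 probes the shares were 69.5%, 64.3% and, for both arrays together, 62.3%. The ultraconserved transcripts were nearest to the probes for mouse lincRNA loci, of which 39.4% were measured on both arrays, and to those for human lincRNA loci, with 38.5%. Probes for lincRNA exons stood higher, at 54.9%. Probes of negative sequence, which match no transcript, give the background of this flag. Of their 1121 spots 22.3% carried it in the control and 12.8% in the I/R hybridisation, and 11.9% did in both. Those spots belong to 20 sequences that repeat across the slide, and on the control array 6 of the 20 had most of their spots above.

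The members were dim as a class. Their median normalized signal was 8.17 on the control array and 8.75 on the I/R array, against 41.0 and 41.0 over all probes. Among the 337 measured on both arrays it was 78.7 and 76.0, against 138 and 137 over all measured probes. Signals of different probes depend on probe affinity as well as on the amount of RNA, so these levels do not rank the transcripts.

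**Figure D1:**
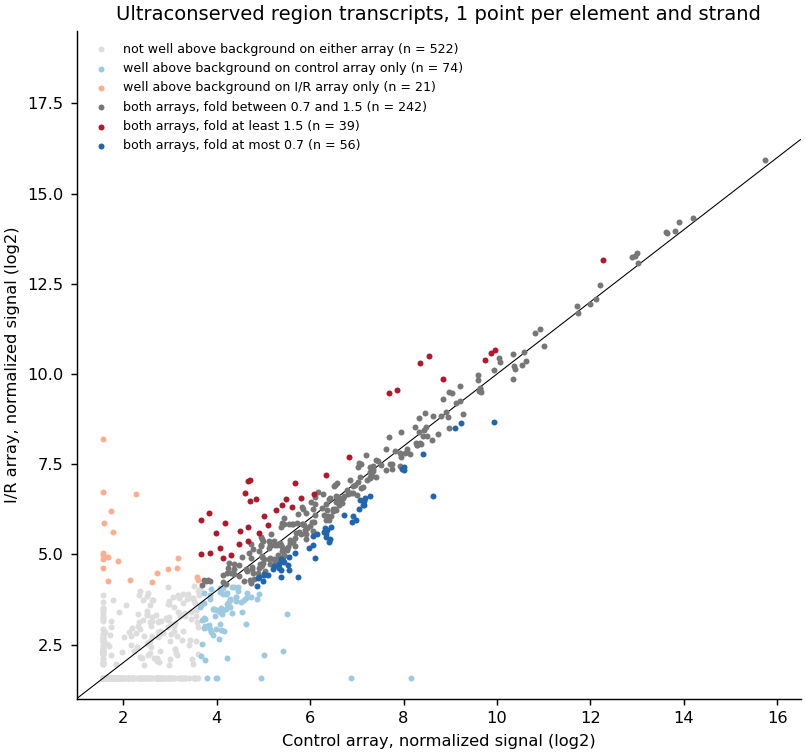
Normalized signal of each of the 954 ultraconserved region probes on the control array (x axis, log2) and the I/R array (y axis, log2), 1 point per element and strand, coloured by detection and fold. The 522 grey points at the lower left were not well above background on either array, 242 of the 337 measured on both lie between the thresholds, and the brightest points lie near the line of equal signal.

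A small group of transcripts was bright on both arrays and differed little between them. The − strand of uc.84 had the strongest signal of all members, with a normalized signal of 54541 on the control array and 62607 on the I/R array, a fold of 1.15 (interval 0.87 to 1.51). The − strands of uc.420 (18901 and 20325) and uc.141 (15296 and 19114) followed. The − strand of uc.371, the + strand of uc.154 and the − strands of uc.340, uc.268 and uc.465 complete the 8 brightest on the control array. Under quantile normalization all 8 had folds between 1.05 and 1.28, and every interval included no change. The smallest, that of the − strand of uc.268 (log2 fold 0.07), turned to −0.06 with quantiles over the named noncoding probes alone.

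The study's thresholds for a difference were a fold of at least 1.5 or at most 0.7, I/R over control, and transcripts past them are said to have risen or fallen. Of the 337 transcripts measured on both arrays, 39 rose (11.6%), against 11.2% of all measured probes, and 56 fell (16.6%), against 12.5%. The other 242 (71.8%) lay between. In liver tissue fewer cells of a type and less RNA per cell cannot be told apart. Rises of at least 2-fold were seen for 22 members (6.53%, against 4.71% of all probes), and falls to 0.5 or less for 8 (2.37%, against 2.32%). The share that rose was near that of the array as a whole, and the share that fell was somewhat above it.

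The direction of the balance depended on how the arrays were scaled. Rises made up 41.1% of the calls under quantile normalization, 56.2% under cyclic loess and 62.1% after the normexp background correction. The 2 thresholds are not equally far from no change on the log2 scale. With falls counted at 1/1.5 or less, 39 rose and 45 fell. Over all measured probes 4186 rose and 4657 fell at the study's thresholds. The median log2 fold of the 337 was −0.04, against −0.06 over all measured probes, and under loess it was 0.04. At the level of the whole class no shift beyond that of the other probes was seen. The folds were spread somewhat more widely than elsewhere, with an interquartile range of 0.69 on the log2 scale against 0.57 over all probes.

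The mouse and human lincRNA locus classes had smaller shares of rises, and the lincRNA exon class had a share near that of the members. Of 272 measured probes for mouse lincRNA loci 16 rose (5.88%) and 43 fell (15.8%), and of 468 for human lincRNA loci 22 rose (4.70%) and 73 fell (15.6%). At 2-fold the mouse lincRNA class had 3 rises and the human lincRNA class 5, where the ultraconserved class had 22. Among 1897 lincRNA exon probes 199 rose (10.5%) and 232 fell (12.2%), and 72 rose at least 2-fold (3.80%). With a single array per condition these shares stand side by side and were not tested.

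The 39 transcripts that rose had a median signal of 32.3 on the control array and 88.6 on the I/R array, the 56 that fell 74.5 and 43.9, and the 242 between the thresholds 90.1 and 87.6. A low control signal among rises and a low I/R signal among falls are in part set by the call itself. How large a difference could arise from the measurement can be read from sequences spotted many times. Between the arrays the log2 fold of negative-sequence spots well above background on both varied with a pooled SD of 0.32. The mean signals of their 5 probes were 18.9 to 54.4. Over all negative-sequence spots the SD was 0.49. For spike-in probes with mean signals of 21.3 to 704, spots well above background, it was 0.31. For 15 repeated mRNA probes with mean signals of 93.3 and more it was 0.10, and 0.31 for the dimmest of them. The interval excluded no change for all 39 rises and for 49 of the 56 falls. Over all measured probes it did so for 4028 of 4186 rises and for 4346 of 4657 falls. The interval does not cover the choice of background correction: under normexp 18 of the 39 rises and 11 of the 56 falls kept their calls.

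By level, where level is the geometric mean of both arrays, 9 of 63 members under 32 rose and 13 fell. Between 32 and 128 the counts were 20 and 35 of 160, and between 128 and 1024 they were 6 and 8 of 82. Under 32 the shares were 14.3% and 20.6%, against 16.0% and 11.7% over all probes. From 32 to 128 they were 12.5% and 21.9%, against 12.2% and 13.9%. From 128 to 1024 they were 7.32% and 9.76%, both below those of all probes (1199 rises and 1462 falls among 11284). A share of falls above that of all probes was thus seen only below 128. At 1024 and above 4 of 32 rose and 0 fell, with a median log2 fold of 0.21, whereas over all probes at that level 7.56% rose and 10.1% fell with a median of −0.04. The 4 bright rises, named here after their values were seen, were the − strands of uc.46 (4912 to 9181, 1.87-fold), uc.75 and uc.419 and the + strand of uc.432, the other three between 1.56-fold and 1.65-fold. Of the 32 bright members 23 were − strands and 9 were + strands.

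The 10 largest rises fell into a dim and a bright group. The + strand of uc.339 went from a normalized signal of 25.6 on the control array to 131 on the I/R array, 5.12-fold (interval 3.64 to 7.20). The − strand of uc.186 went from 26.1 to 132, 5.07-fold (3.61 to 7.12). The + strand of uc.377 rose 4.99-fold, from 14.2 to 70.8. All of these had control signals within or below 18.9 to 54.4, the range of the negative-sequence probe means given above. Single negative-sequence spots reached 108 on the control array before normalization. Control signals were also within or below the range of those means for the − strands of uc.183 (12.6 to 62.5, 4.95-fold) and uc.213 (24.4 to 104, 4.28-fold). The same was true of the + strand of uc.36 (26.3 to 88.6, 3.38-fold). The size of these rises depended on the background correction. Under normexp all 6 still passed 1.5-fold, but uc.339 rose 2.05-fold, uc.186 2.15-fold, uc.377 1.65-fold, uc.183 1.61-fold, uc.213 1.88-fold and uc.36 1.65-fold.

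The other four had control signals of over 200. The − strand of uc.193 went from 375 to 1453, a rise of 3.87-fold (interval 2.93 to 5.11). The − strand of uc.101 went from 328 to 1262, 3.85-fold (2.92 to 5.08). These were the strongest rises that did not start near background, and under normexp they were 3.40-fold and 3.41-fold. The − strand of uc.455 rose 3.44-fold (2.60 to 4.54), from 207 to 711, and the + strand of uc.184 rose 3.25-fold (2.46 to 4.29), from 232 to 753. For uc.193 and uc.455 the opposite strand was also measured on the I/R array alone, where it was at least 1.80-fold and at least 2.25-fold higher than the control array allowed.

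The largest fall was that of the − strand of uc.204, from 395 to 99.1, which is 3.99-fold lower on the I/R array (interval 3.0 to 5.31). The + strand of uc.12 fell from 53.9 to 20.6, 2.62-fold. The − strand of uc.293 was the brightest of all members that fell, at 983 on the control array and 407 on the I/R array, 2.41-fold lower (1.83 to 3.19). Among transcripts measured on both arrays falls were thus smaller than rises at the extreme. Over all measured probes, too, rises of at least 2-fold (4.71%) were more frequent than falls to 0.5 or less (2.32%). A transcript that fell below the lowest measured I/R signal of 17.5 is not among those measured on both arrays and has only a bound, given below. The − strand of uc.333 fell 2.28-fold, from 68.4 to 29.9. Under normexp these falls were 2.83-fold, 1.48-fold, 2.30-fold and 1.44-fold. The rest of the 10, the + strand of uc.196 and the − strands of uc.121, uc.481, uc.450, uc.398 and uc.191, fell between 1.97-fold and 2.07-fold from control signals of 41.7 to 126. Of these the − strands of uc.450 (fold 0.85), uc.191 (0.79) and uc.481 (0.702) no longer passed 0.7 under normexp.

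**Figure D2:**
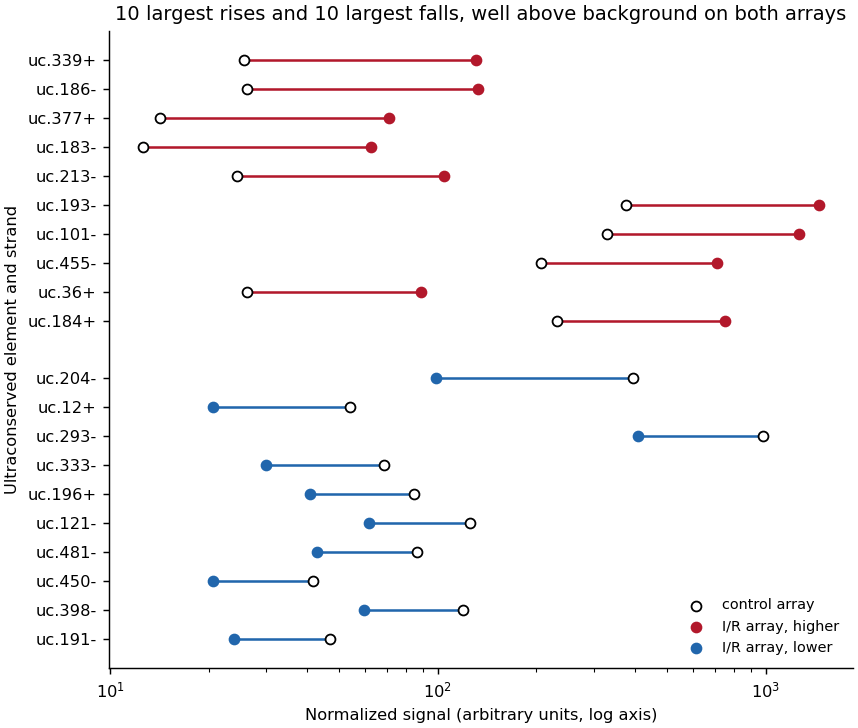
Normalized signal (arbitrary units, log axis) on the control array (open circles) and the I/R array (filled circles) of the 10 transcripts with the largest rises and the 10 with the largest falls among those measured on both arrays, 1 array per condition. The rises of uc.193-, uc.101-, uc.455- and uc.184+ start above 200, the others start at 26.3 or lower, and uc.204- has the longest line among the falls.

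At the thresholds themselves neighbours were hardly apart. The + strand of uc.186, at 1.51-fold, was the last transcript counted as a rise, and the + strand of uc.458, at 1.496-fold, was the first left out. On the other side the − strand of uc.58 was counted with a fold of 0.696, and the + strand of uc.325 was not with 0.702. Each of these 4 changed sides under at least 1 other scaling.

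Transcripts measured on a single array have only a bound, the measured signal against the lowest signal well above background on the other array. For 21 members measured on the I/R array alone the bound was a rise of at least 1.5-fold in 20, against 86.8% of all such probes. With lowest measured signals of 12.5 on the control array and 17.5 on the I/R array this bound was easily passed. For 74 members measured on the control array alone the bound reached 0.7 in 9 (12.2%), against 15.7% of all such probes. The − strand of uc.437 had the largest bound, at a normalized signal of 292 on the I/R array and at the array's floor on the control array, at least 23.4-fold higher. The + strands of uc.247, uc.189, uc.176 and uc.287 followed with at least 8.49-fold, 8.22-fold, 5.91-fold and 4.67-fold, and the − strand of uc.247 also appeared on the I/R array alone, at least 2.35-fold higher.

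In the other direction the − strand of uc.464 stood at 287 on the control array and at the floor on the I/R array, at least 16.4-fold lower. Its + strand did the opposite and rose 1.69-fold, from 17.6 to 29.8, or 1.17-fold under normexp, which ends that call. The − strand of uc.106 was at least 6.72-fold lower, from 118 on the control array. The + strand of uc.175 was at least 2.60-fold lower, the − strand of uc.249 at least 2.45-fold and the + strand of uc.369 at least 1.84-fold. Each of these bounds rests on 1 spot per array.

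Transcription from both strands of an element was compared next, since each element had a probe for either strand. On the control array both strands were measured for 94 of the 477 elements (19.7%), the + strand alone for 99, the − strand alone for 124 and neither for 160 (33.5%). On the I/R array the numbers were 77 (16.1%), 100, 104 and 196 (41.1%). In the control both strands were measured for 22.9% of mouse lincRNA loci, 23.9% of human lincRNA loci and 41.3% of lincRNA exons. A single strand was measured for 46.8% of the elements there, against 50.9%, 47.3% and 44.8% in those classes. Measured − strands went from 218 to 181 and measured + strands from 193 to 177. Fewer were measured on the I/R array in the like classes as well. In mouse lincRNA loci − strands went from 171 to 145 and + strands from 158 to 135. For human lincRNA loci the numbers were 305 to 246 and 272 to 242, and for lincRNA exons 1137 to 1014 and 1062 to 953. Over all probes the measured share went from 69.5% to 64.3%. The shares with a measured − strand were not far apart between elements with and without a measured + strand. The − strand was measured for 48.7% of the elements with a measured + strand on the control array and for 43.7% of the others, and on the I/R array for 43.5% and 34.7%.

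**Figure D3:**
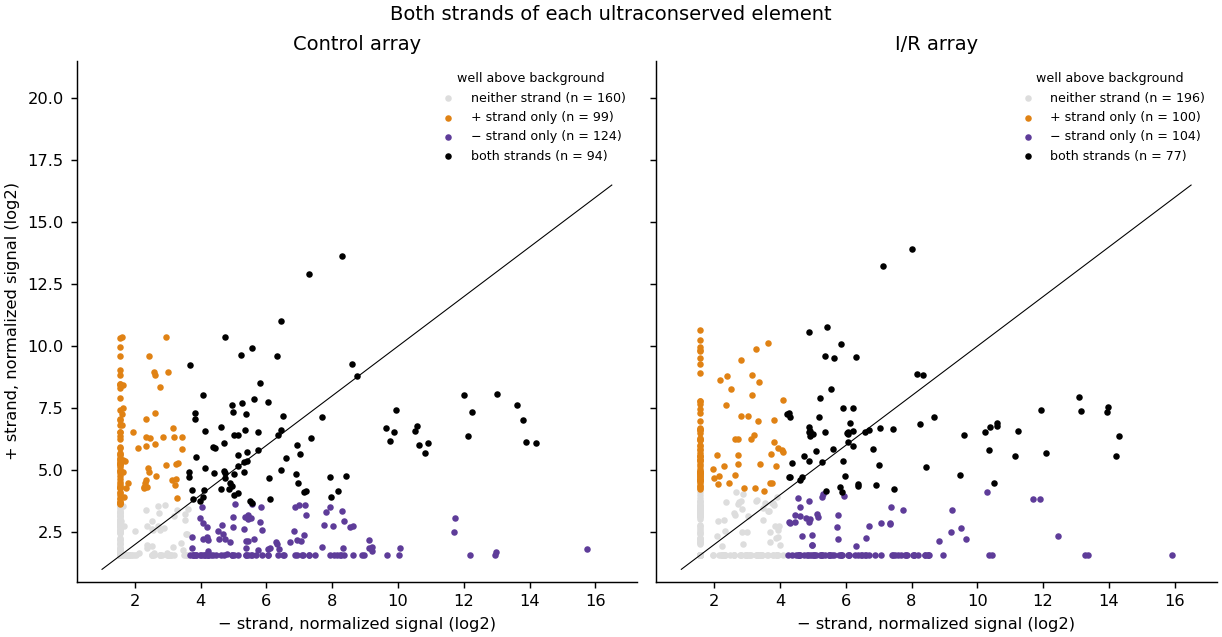
Normalized signal of the − strand (x axis, log2) against the + strand (y axis, log2) for each of 477 ultraconserved elements on the control array (left) and the I/R array (right), coloured by which strand was well above background. Black points are the 94 (control) and 77 (I/R) elements with both strands measured, and the points of highest signal lie along the − axis.

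The strand pattern was mostly kept between the arrays. It was the same on both for 387 elements (81.1%): neither strand for 146, both strands for 70, the + strand alone for 79 and the − strand alone for 92. The share was near those of the like classes, 82.1% of mouse lincRNA loci, 80.2% of human lincRNA loci and 80.0% of lincRNA exons. No element was measured on its + strand alone on 1 array and its − strand alone on the other. Both strands on the control array became a single strand on the I/R array for 20 elements, and 7 went from a single strand or none to both.

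Where both strands were measured their signals often lay far apart. On the control array the + strand was at least 2-fold above the − strand in 29 elements, the − strand at least 2-fold above the + strand in 35, and 30 were within 2-fold, with a median ratio of 3.32 in either direction. On the I/R array the counts were 22, 30 and 25, with a median of 3.47. The strands are read by different probes, so such a ratio holds the affinity of both probes as well as the RNA.

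The widest ratios favoured the − strand. For uc.420 the − strand exceeded the + strand 276-fold on the control array (18901 against 68.5) and 242-fold on the I/R array. For uc.141 the − strand led 216-fold in the control and 403-fold in the I/R sample, and for uc.371 110-fold and 86.3-fold. The − strand also led in uc.340 and uc.45. The + strand led most in uc.356, with 1307 against 26.5 on the control array, 49.3-fold, and 51.1-fold on the I/R array. It was followed by uc.471 (48.9-fold and 69.2-fold), uc.159, uc.154 and uc.481. The − strand of uc.159 was not measured on the I/R array.

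For 70 elements both strands were measured on both arrays. A constant affinity of each probe cancels in the change of their ratio, but background left in the signals does not. The log2 ratio on the I/R array followed that on the control array closely (Pearson's r = 0.97, Spearman's rho = 0.93 over 70 elements, whose points share the arrays and the probes). For mouse lincRNA loci, human lincRNA loci and lincRNA exons this r was 0.97, 0.96 and 0.98. The brighter strand was the same on both arrays in 58 of the 70. It was so in 52 of 59 mouse lincRNA loci, 89 of 100 human lincRNA loci and 495 of 541 lincRNA exons. The ratio changed at least 2-fold in 12 (17.1%), 6 in each direction, against 14.7% of 770 loci of the ultraconserved and lincRNA classes, and the median change was 1.33-fold. Under normexp 3 ratios changed at least 2-fold, those of uc.12 and uc.293, which are among the 12, and that of uc.184, which had missed the threshold at 1.99-fold.

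**Figure D4:**
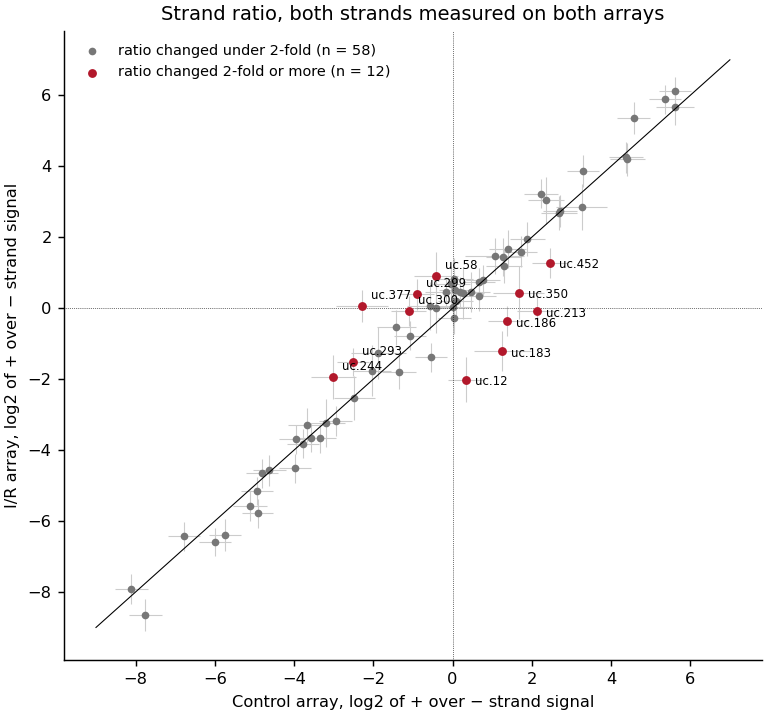
Log2 ratio of the + over the − strand signal on the control array (x axis) and the I/R array (y axis) for the 70 elements with both strands measured on both arrays, with 95% spot-measurement intervals and the line of equal ratio. Most points lie on the line over a range of ratios from about −8 to 6, and the 12 elements named in the plot changed 2-fold or more.

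The ratio moved furthest toward the − strand in uc.183. Its − strand rose from 12.6 to 62.5 while its + strand went from 30.2 to 26.8, so the + over − ratio went from 2.39 to 0.43, a 5.58-fold decrease (interval 2.95 to 10.6). It was the only one of the 70 elements in which either strand led 2-fold or more on 1 array and the opposite strand did so on the other. In uc.12 the strands moved apart. The + strand fell from 53.9 to 20.6 and the − strand rose from 42.4 to 83.1 (1.96-fold), which lowered the ratio 5.14-fold (2.99 to 8.83). In uc.213 the + strand was nearly level, at 106 and 98.1, and the rise of the − strand lowered the ratio 4.63-fold (2.94 to 7.28). The ratio of uc.186 decreased 3.35-fold and that of uc.350 2.34-fold. Under normexp the decreases were 1.62-fold for uc.183, 2.10-fold for uc.12, 1.96-fold for uc.213, 1.71-fold for uc.186 and 1.32-fold for uc.350, in the same direction.

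Toward the + strand the largest shift was that of uc.377, whose + strand rose 4.99-fold while the − strand stayed at 69.2 and 67.7. The ratio went from 0.21 to 1.05, a 5.10-fold increase (2.96 to 8.80). The ratio of uc.58 rose 2.48-fold (1.35 to 4.55), with a + strand that rose from 22.4 to 38.8 and a − strand that fell from 29.9 to 20.8. It was with uc.12 the other of the 2 elements whose strands passed the thresholds in opposite directions. The ratios of uc.299, uc.244 and uc.300 rose 2.45-fold, 2.09-fold and 2.05-fold. In uc.300 the − strand was level, at 96.6 and 96.8, and in uc.299 the − strand went from 121 to 66.6. Under normexp the increases were 1.6-fold for uc.377, 1.29-fold for uc.58, 1.73-fold for uc.299, 1.41-fold for uc.244 and 1.44-fold for uc.300, none of them 2-fold, and neither uc.12 nor uc.58 had both strands past the thresholds.

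Both strands passed the thresholds together in 5 elements. In uc.36 the + strand rose 3.38-fold and the − strand 2.53-fold, from 12.6 to 31.9. In uc.37, the next number, they rose 3.22-fold (28.6 to 92.1) and 2.09-fold (32.3 to 67.6). These were the elements with the most even rise of both strands. In uc.184 the + strand rose 3.25-fold and the − strand 1.63-fold, and in uc.186 the − strand rose 5.07-fold and the + strand 1.51-fold. In uc.398 both fell, the + strand from 29.0 to 17.6 and the − strand from 119 to 59.7. Under normexp 1 strand of each of these 5 elements stayed past its threshold and the other did not.

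Across the 70 elements the strands moved in the same direction in 44 (62.9%), both higher in 19 and both lower in 25, and in opposite directions in 26. The share was 49.2% of 59 mouse lincRNA loci, 48.0% of 100 human lincRNA loci and 54.9% of 541 lincRNA exons. The log2 folds of the strands were only weakly related (r = 0.20, rho = 0.21 over 70 elements that share both arrays). A single strand passed a threshold in 21 of the 70, and neither strand did in 42. Counted over strands, 21 of 163 measured + strands rose (12.9%) and 21 fell, whereas of 174 measured − strands 18 rose (10.3%) and 35 fell (20.1%), against 11.2% and 12.5% of all probes. Most falls of − strands were at levels between 32 and 128, where 23 of 81 fell (28.4%), as did 12 of 79 + strands (15.2%) and 13.9% of all probes.

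Elements with neighbouring numbers can lie near each other in the genome, although a distance is not known here. Of 470 pairs of consecutive numbers, 62 had both + strands measured on both arrays, and the log2 folds of those neighbours were weakly related (r = 0.24, rho = 0.31). For 70 pairs of − strands r was 0.02. Between a + strand and the next − strand r was −0.03 (68 pairs), and between a − strand and the next + strand 0.33 (58 pairs, rho = 0.18). Control signals of neighbours were about as weakly related, with r = 0.11 for + strands and 0.13 for − strands. Rises on either strand were found in 35 elements, and 4 pairs of these had consecutive numbers, 28 and 29, 36 and 37, 183 and 184, and 376 and 377. Falls were found in 55 elements, among them 6 consecutive pairs, 57 and 58, 73 and 74, 97 and 98, 158 and 159, 333 and 334, and 390 and 391. No run was longer than 2. Some pairs joined opposite strands, as the + strand of uc.57 and the − strand of uc.58. So did the + strand of uc.73 with the − strand of uc.74, and the − strand of uc.158 with the + strand of uc.159. How many pairs elements picked at random would give was not worked out, so these counts are a description only.

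**Figure D5:**
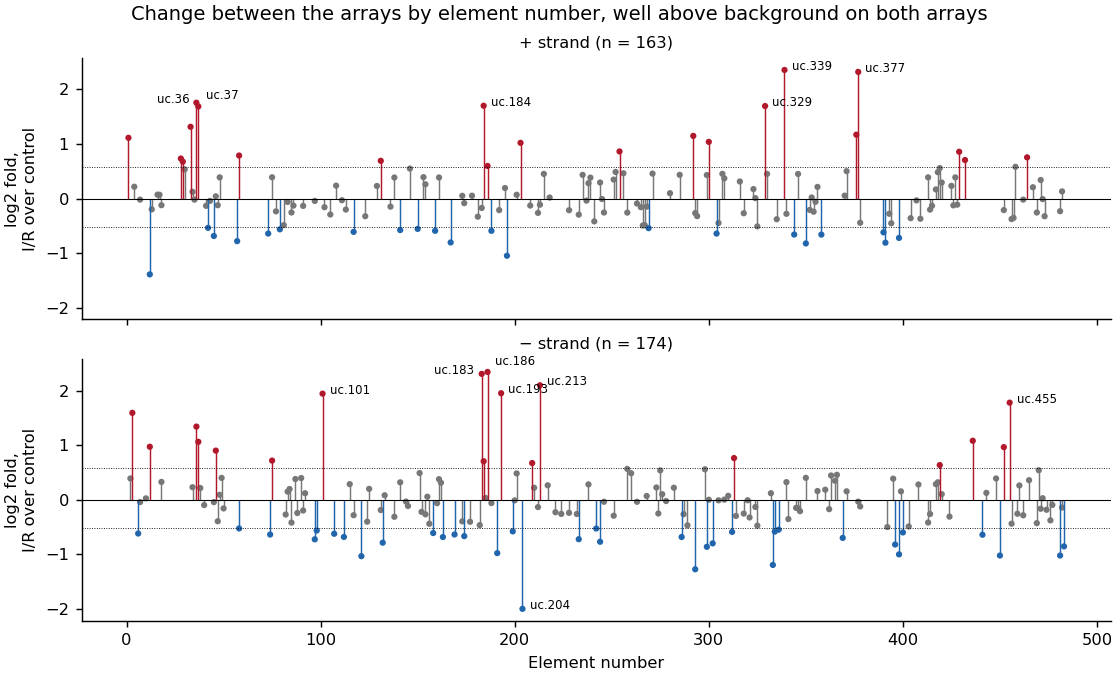
Log2 fold, I/R over control, of each transcript measured on both arrays by element number, for the + strand (163 transcripts, top) and the − strand (174, bottom), with dotted lines at the thresholds of 1.5 and 0.7. Red rises and blue falls are spread over the whole range of numbers, the 2 strands of uc.36 and uc.37 rise together, and uc.204 on the − strand falls furthest.

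Of the elements singled out because they are known from work on cancers, uc.73 passed a threshold. Its + strand fell to 0.64 of the control signal (interval 0.49 to 0.85), or to 0.709 under normexp, which ends the call, while its − strand was measured on neither array. The − strand of uc.160 had a fold of 0.96, and its + strand was not measured. The other two elements looked at for this reason were a lower-numbered one, neither strand of which was well above background on either array, and a higher-numbered one, whose strands were both measured with folds of 1.37 (+ strand, 0.74 to 2.51) and 0.90 (− strand), neither past a threshold.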

How the data were processed

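Total RNA of 1 control and 1 I/R liver sample was hybridised to 1 one-colour Agilent mouse LncRNA array each. The authors extracted spots with Agilent Feature Extraction (11.0.1.1 per the labels), and the deposited intensity used is the green processed signal, which is background-subtracted and floored near the array's noise, with its error and flags. The value table of the authors holds the same intensities, so it served as the setting without normalization between arrays. The methods state quantile normalization in GeneSpring, a flag filter and the thresholds 1.5 and 0.7.

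Here log2 intensities of spots that were neither controls, outlier-flagged nor negative-sequence were averaged per probe and quantile-normalized over 59692 probes with limma 3.58.1 in R 4.3.3. Python 3.11.15, numpy 2.4.6, pandas 2.3.3 and scipy 1.17.1 were used for the rest. A fold is given where a probe was well above background on both arrays, with an interval of 1.96 standard errors, taken from the errors of its spots on the log2 scale. Otherwise it is a bound. With 1 array per condition the conditions were not tested against each other. The number of arrays limits the precision. The normalization and the calling of folds were tested on simulated data, with large planted changes and less noise than dim spots have here. Bounds, intervals and strand ratios were not tested in this way.

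Named transcripts are the 10 largest rises and falls, the 5 largest bounds in each direction, the 8 brightest, the 5 widest strand ratios and 5 largest ratio changes in each direction, elements with both strands past a threshold, those next to a threshold, and uc.73, uc.160, uc.283 and uc.346, with exceptions stated. Members and lists were chosen with earlier results of these data known. Of the array's 481 elements 4 are not reported here. Lists of 12 hepatocyte, 5 macrophage, 4 neutrophil, 4 endothelial, 3 cholangiocyte and 3 lymphocyte genes and of 15 RNA-processing genes known to hold such elements gave no values, since 0 of their genes were among the 116 probes named through RefSeq accessions. Alternatives changed the normalization, background correction, probe set, flags and thresholds.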

Additional observations from a re-analysis of the deposited data

How the results depend on the processing

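No paired analysis was possible because each condition had 1 array. The alternatives were a shift to a common 75th percentile, cyclic loess, no normalization between arrays, normexp, outlier-flagged spots or negative-sequence probes kept, quantiles over the named noncoding probes alone, other detection flags and other thresholds. Under the settings that changed only the normalization or the probe set, rises ranged from 38 to 50 and falls from 39 to 59, against 39 and 56. Cyclic loess gave 50 rises, which included all 39, and 39 falls, all among the 56, and the median log2 fold turned from −0.04 to 0.04, as that of all measured probes turned from −0.06 to 0.02. Normexp (offset 50, applied to median signals), which shrinks the folds of dim spots by construction, left 18 rises, 11 falls, 18 elements with the + strand 2-fold above the − strand on the control array and 3 changed strand ratios. Mean signals, on which it had been planned, were not among the values used here. The positive and significant flag in place of well above background admits dimmer probes. With it 672 and 596 members were detected on the control and I/R arrays, and of the 546 detected on both 95 rose and 121 fell. The + strand then led 2-fold in 77 elements and the − strand in 109 on the control array, and in 63 and 77 on the I/R array. The ratio changed in 49, and the strands moved the same way in 91. These strand counts are over a larger set of elements, and their shares were not worked out. Without a filter on dim probes 137 of all 954 members rose and 193 fell. The shares over all probes under these 2 detection settings were not worked out. With thresholds of 2 and 0.5, among members well above background on both arrays, 22 rose and 8 fell. A 1.5-fold threshold between strands gave 26 changed ratios, and 5 elements had both strands past 1.5 or 0.7 in the same direction. For 32 named transcripts under 7 settings, 209 of 224 log2 folds stayed within their spot-measurement interval, and 15 moved further, all of them under normexp. The direction changed for 1, the − strand of uc.268 (−0.06 with quantiles over the noncoding probes), which had passed no threshold. Normexp ended the calls of 5, uc.186+, uc.191-, uc.450-, uc.481- and uc.58-, and other scalings ended or made calls only of the 4 next to a threshold.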
